A study of Mus musculus with 12 samples.

Results

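The genes described here are 8 members of the sympathetic neuron and neuroblastoma program, measured in Neuro-2a, a mouse neuroblastoma cell line. They were 6 transcription factors of the noradrenergic lineage (Phox2a, Hand2, Gata2, Gata3, Isl1 and Mycn) and 2 enzymes of catecholamine synthesis (Th and Dbh). They were chosen by name with earlier results of these data known, and all 8 were found among the 55401 gene identifiers of the count files. Total RNA depleted of ribosomal RNA was sequenced in 12 libraries, 3 groups of 4 biological replicates. Every group was transfected with 1 µg of a plasmid expressing GFP and 3 µg of plasmids expressing artificial microRNAs in a miR30 backbone, and GFP-positive cells were sorted 48 h later. The control group, miScramble, received a scrambled microRNA. The group miRbmx received a pool of 3 microRNAs against Rbmx, and miRbmxl1 a pool of 2 against Rbmxl1. RBMX is a nuclear RNA-binding protein that takes part in splicing, and Rbmxl1 is a retrocopy of its gene, so reads shared by the pair could have been left out or misplaced in counting. All values come from 1 cell line, and with pooled microRNAs no value can be assigned to a single one.

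In sympathetic neurons and in adrenergic neuroblastoma, PHOX2A, HAND2, GATA2, GATA3 and ISL1 bind together at enhancers, including those of their own genes, and keep each other and the noradrenergic phenotype switched on. MYCN, a MYC-family factor that drives growth and ribosome production, joins this circuit in neuroblastoma, where amplification of its gene marks aggressive disease. Tyrosine hydroxylase (TH) makes L-DOPA from tyrosine, the rate-limiting step, DOPA decarboxylase (DDC) turns it into dopamine, and dopamine β-hydroxylase (DBH) turns dopamine into noradrenaline.

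The libraries held 43096846 to 52241198 reads assigned to genes. Rbmx was lower in miRbmx than in miScramble in 4 of 4 same-numbered pairs, with a log2 fold change of -1.30 ± 0.08 (SE), and Rbmxl1 was lower in miRbmxl1, at -1.27 ± 0.09, again in 4 of 4 pairs. In miRbmxl1 Rbmx was higher by 0.36 ± 0.07 (adjusted p = 0.0165). Replicates 1 and 2 stood apart from replicates 3 and 4 across all groups. After the group mean was removed, the correlation over genes was -0.57 to -0.13 for the 24 pairs of libraries across that divide and 0.195 to 0.52 for the 12 pairs with the same number. What the number marks is not given in the labels, so results are given with the number as a block and, for some genes, within each set of replicates. Markers of other cells were low. The summed level over 5 endothelial markers was at most 8.75 counts per 1000000 reads (CPM, scaled by edgeR's TMM factors), and those of the glial, adrenal cortex, fibroblast and immune lists were lower still. Fabp7, Cyp11b1, Col3a1 and Cd3e had 0 reads in all 12 libraries, but other markers of each list were detected. The count filter kept 2 of 7 glial, 1 of 6 adrenal cortex and 1 of 6 fibroblast markers. It also kept 2 of 5 endothelial and 1 of 5 immune markers.

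All 8 genes were transcribed in Neuro-2a. Per exon length the factors Hand2, Phox2a and Gata2 were among the most abundant transcripts, whereas Mycn and Dbh lay below the median. In RPKM, reads scaled by exon length and library size, Hand2 was at 148 ± 7.77 (SD, n = 4) in miScramble, above 98.5% of the 12720 protein-coding genes tested. Phox2a, at 107 ± 26.9, and Gata2, at 90.2 ± 22.3, overlapped between libraries, and they changed places when the length of the longest transcript was used. Gata3 followed at 29.7 ± 1.79 and Isl1 at 13.98 ± 3.34, above 87.2% and 69.7% of these genes. The first enzyme of the pathway, Th, was at 7.40 ± 1.09 RPKM, close to the median of 6.93 over the protein-coding genes. Mycn, at 3.46 ± 0.27, and Dbh, at 2.79 ± 0.37, overlapped each other and stood above 33.6% and 30.0% of genes. No other neighbours in this order overlapped between libraries. The lowest count of any member in any library was 302 reads, for Dbh, and 3 reads correspond to at most 0.0696 CPM before TMM scaling.

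**Figure D1:**
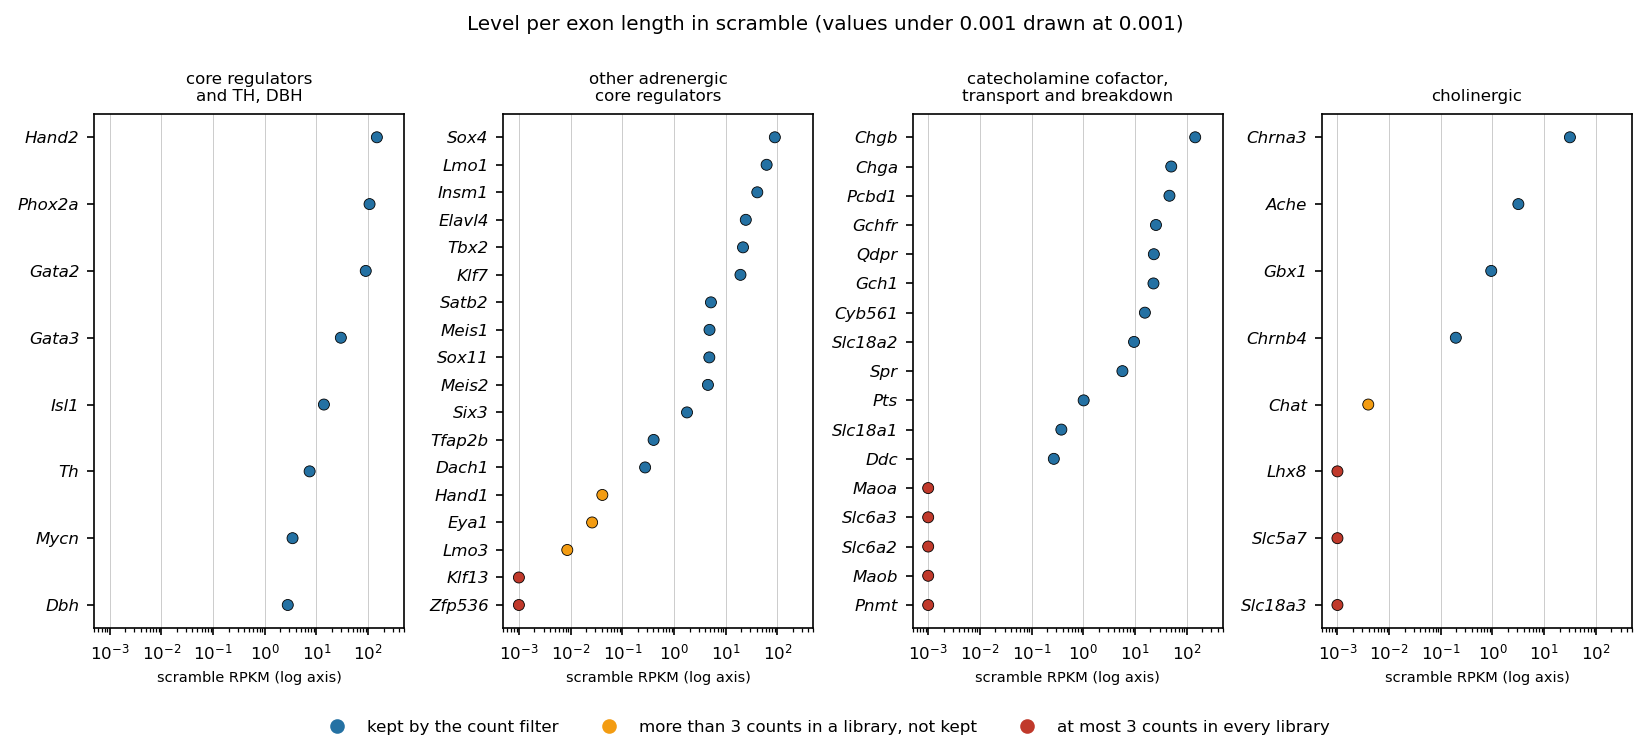
RPKM in miScramble (mean of 4 libraries, log axis) of the 8 genes and of genes from 3 related lists, with values under 0.001 drawn at 0.001. Colours mark genes kept by the count filter, genes with more than 3 reads in a library that were not kept, and genes with at most 3 reads in every library, and the 8 genes lie between 2.79 and 148 while Maoa, Maob, Slc6a2 and Slc6a3 lie at the left edge.

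In GENCODE M21, on the mm10 assembly that the submitters' notes name, Mycn (ENSMUSG00000037169) occupies chr12:12936093-12941914 on the minus strand, Hand2 (ENSMUSG00000038193) chr8:57320983-57324633 on the plus strand, Th (ENSMUSG00000000214) chr7:142892752-142931128 on the minus strand and Dbh (ENSMUSG00000000889) chr2:27165233-27183200 on the plus strand. Phox2a (ENSMUSG00000007946) is at chr7:101818313-101822726 (plus strand), Gata2 (ENSMUSG00000015053) at chr6:88193891-88207032 (plus strand), Gata3 (ENSMUSG00000015619) at chr2:9857078-9890034 (minus strand) and Isl1 (ENSMUSG00000042258) at chr13:116298281-116309689 (minus strand). Reads of Phox2a could mix with those of Inppl1 and reads of Hand2 with those of Hand2os1, both on the opposite strand, because the strand setting of the counting is not given in the sources used here. Gata3 overlaps 1 gene on its own strand, 9230102O04Rik, and 2 on the other. No annotated gene overlaps Gata2, Isl1, Mycn, Th or Dbh.

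Sequence before the start site is shown for the member that was called in the tests below (Mycn), for the most abundant factor (Hand2) and for the first enzyme of the pathway (Th). The bases are from RefSeq (GRCm38.p6), 5′ to 3′ on the gene's strand, without annotated untranslated exons. Distances are counted from the RefSeq start, which for Hand2 is also the start of the GENCODE gene given above. For Mycn it lies 78 bases inside the GENCODE gene, and for Th 31133 bases inside it, so the Th stretch lies within the GENCODE span of Th. Capitals mark matches on either strand to a set of 7 motifs: the cAMP response element TGACGTCA, the TATA box TATAAA, the homeodomain core ATTA (on the other strand it reads TAAT), the palindromic E-box CACGTG, the neural type of E-box written CATCTG, the GATA site AGATAA (on the other strand it reads TTATCT) and the E2F-type site TTTGGCGC.
Mycn, chr12:12941915-12942086, minus strand: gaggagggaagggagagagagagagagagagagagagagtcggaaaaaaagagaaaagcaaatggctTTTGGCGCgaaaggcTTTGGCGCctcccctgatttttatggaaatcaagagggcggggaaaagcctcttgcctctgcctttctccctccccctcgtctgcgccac
Hand2, chr8:57320733-57320982, plus strand: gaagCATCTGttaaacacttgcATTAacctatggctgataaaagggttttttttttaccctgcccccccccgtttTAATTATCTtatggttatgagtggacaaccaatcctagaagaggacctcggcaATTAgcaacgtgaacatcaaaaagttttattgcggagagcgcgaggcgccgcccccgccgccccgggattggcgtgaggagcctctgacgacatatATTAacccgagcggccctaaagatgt
Th, chr7:142900015-142900245, minus strand: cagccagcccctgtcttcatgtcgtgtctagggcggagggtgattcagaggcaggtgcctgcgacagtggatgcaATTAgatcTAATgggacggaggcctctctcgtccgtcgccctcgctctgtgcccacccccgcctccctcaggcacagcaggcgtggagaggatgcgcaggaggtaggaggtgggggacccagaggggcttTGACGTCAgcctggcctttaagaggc
The Mycn stretch runs from 250 to 79 bases before the start and holds TTTGGCGC at 183 and again at 168 bases before it. Of 32851 windows of 250 bases before mouse gene starts, 0.417% hold this octamer. The Th stretch holds TGACGTCA at 45 bases, a motif found in 1.546% of windows, and the homeodomain core at 175 and 167 bases. Hand2 has 5 copies of the homeodomain core, 2 of which overlap each other and the GATA site at 172 bases, and CATCTG at 246 bases. The homeodomain core is common, with 54.918% of windows holding it, the GATA site is in 9.988% and CATCTG in 14.444%. The TATA box (12.368% of windows) and CACGTG (6.021%) had no match in the windows of the 8 genes. These matches describe the letters only. Dbh also has the homeodomain core, at 157, 147 and 65 bases, in a window that lies inside the GENCODE span of Dbh. Isl1 has it at 177 and 112. Mycn has it at 32 and 29 bases, outside the stretch shown and inside the GENCODE span of Mycn. The windows of Phox2a, Gata2 and Gata3 hold none of these letters.

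Against miScramble, Mycn was the only one of the 8 genes to pass the test in either knockdown, and it was higher in both. In edgeR's quasi-likelihood test with the replicate number as block, 1 of 8 was called in miRbmx (adjusted p under 0.05), where 8.35% of the 17569 genes tested were called. In miRbmxl1 it was also 1 of 8, beside 4.46% of all genes. The median log2 fold change of the 8 was 0.12 in miRbmx and 0.17 in miRbmxl1, while the median of all genes was -2.2e-05 and 0.01. Both comparisons share the 4 scramble libraries, so they are not independent of each other. Without the block 0 of 8 were called in either comparison, 1 and 3 of 8 had an unadjusted p under 0.05 (10.9% and 8.46% of all genes did), and only 1 gene of 17569 (0.00569%) was called in each.

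**Figure D2:**
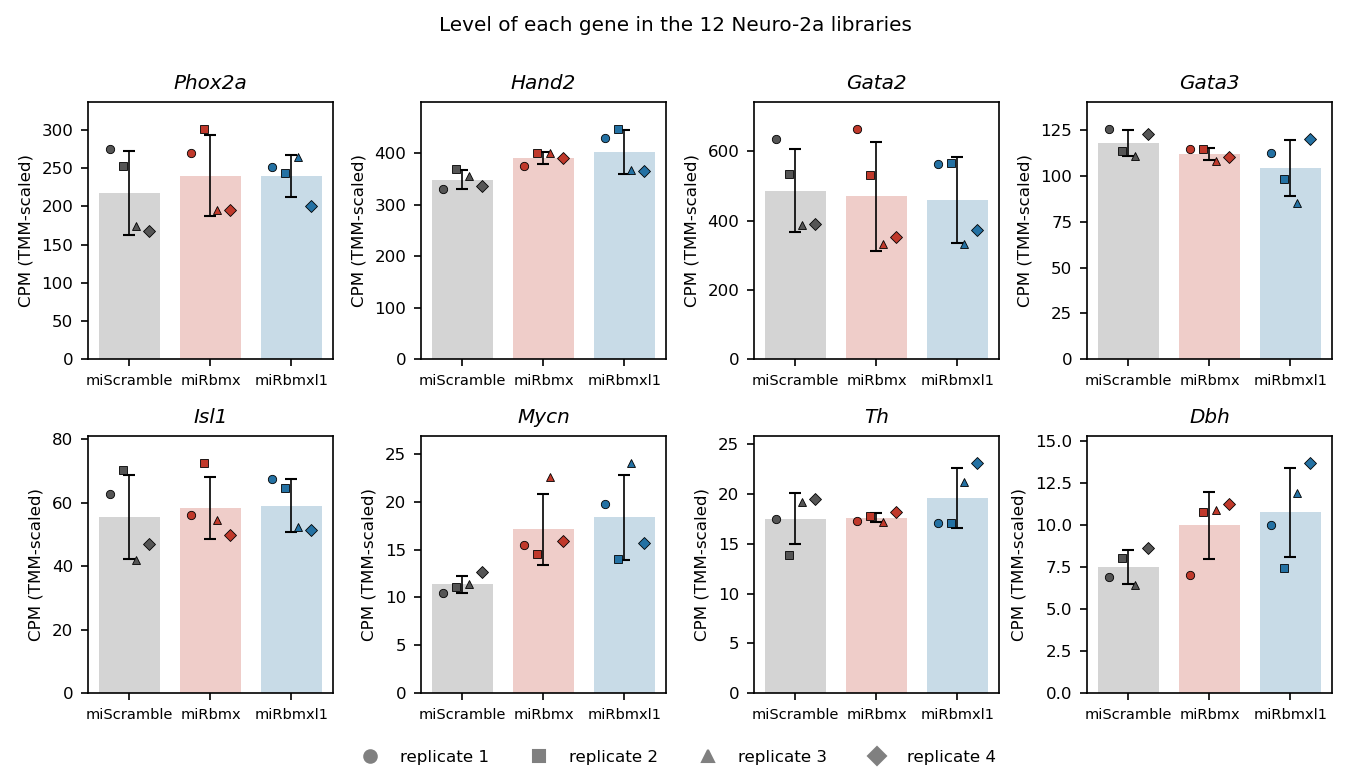
CPM of each gene in the 12 libraries (vertical axes from 0), with points for libraries, marker shape for replicate number, bars for group means and error bars for the SD of 4 libraries. All Mycn points of both knockdowns lie above the scramble points, and Gata2 splits by replicate number, with replicates 1 and 2 above 3 and 4 in each group.

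Mycn was measured at 10.5, 11.1, 11.4 and 12.6 CPM in miScramble replicates 1 to 4. It was at 15.4, 14.6, 22.6 and 15.9 CPM in miRbmx and at 19.8, 14.1, 24.0 and 15.7 CPM in miRbmxl1. Every knockdown library was above every scramble library, and replicate 3 was the highest of its group in both knockdowns. Group means were 11.4 ± 0.90 (SD, n = 4), 17.1 ± 3.69 and 18.4 ± 4.44 CPM. Mycn rose by a log2 fold change of 0.56 ± 0.12 (SE) in miRbmx (adjusted p = 0.0126, 1.48-fold) and by 0.66 ± 0.12 in miRbmxl1 (adjusted p = 0.00844, 1.58-fold), higher in 4 of 4 same-numbered pairs each time. In bulk RNA a larger share of expressing cells and more RNA per cell cannot be told apart. Without the block the differences were 0.59 and 0.69 with adjusted p = 0.278 and 0.369. The miRbmx call was lost without miScramble replicate 3 (0.42, adjusted p = 0.0581), without miRbmx replicate 3 (0.49, adjusted p = 0.0566) and without replicate 3 of all groups (0.43, adjusted p = 0.0795). Of these 3 settings, the miRbmxl1 call was lost only in the last (0.53, adjusted p = 0.0534). Replicates 1 and 2 alone gave 0.48 (adjusted p = 0.161) and 0.64 (adjusted p = 0.125), while replicates 3 and 4 alone gave 0.65 (adjusted p = 0.00643) and 0.69 (adjusted p = 0.00705). The test between these sets gave 0.18 ± 0.24 (adjusted p = 0.825) and 0.06 ± 0.24 (adjusted p = 0.969).

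Hand2, a basic helix-loop-helix factor needed for sympathetic neurons to become noradrenergic, was at 331, 369.6, 356 and 335 CPM in miScramble. It was at 375, 399.7, 399 and 390.1 CPM in miRbmx and at 429.7, 446, 366 and 365 CPM in miRbmxl1. The miRbmx libraries all lay above the scramble libraries, while 2 of the miRbmxl1 libraries lay below the highest scramble library. Non-overlap upward occurred for 2 of 8 members in miRbmx (Mycn and Hand2), where 4.22% of all genes showed it, and for 1 of 8 in miRbmxl1, where 2.88% did. The difference was 0.17 ± 0.06 in miRbmx (adjusted p = 0.106) and 0.21 ± 0.06 in miRbmxl1 (adjusted p = 0.0757), higher in 4 of 4 pairs in both. In miRbmxl1 replicates 1 and 2 alone gave 0.34 (adjusted p = 0.137) and replicates 3 and 4 alone 0.07 (adjusted p = 0.555), and the test between these sets gave -0.24 ± 0.10 (adjusted p = 0.542). In miRbmx 3 of 8 members were higher in 4 of 4 pairs (Hand2, Mycn and Dbh), as were 17.7% of all genes, and in miRbmxl1 2 of 8 (Hand2 and Mycn), as were 13.4%. The Hand2 difference did not pass the test, but did with only the 2 groups compared in miRbmx (adjusted p = 0.0360) and, in miRbmxl1, with DESeq2 (adjusted p = 0.0401) or without the count filter (adjusted p = 0.0423).

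Phox2a, a homeodomain factor that directs expression of the noradrenaline-synthesis genes, was at 275, 253, 174 and 167 CPM in miScramble, at 269.6, 301, 196 and 195 in miRbmx and at 251, 243, 265 and 201 in miRbmxl1. Replicates 3 and 4 were the lower libraries in miScramble and miRbmx, but miRbmxl1 replicate 3 was the highest of its group. The differences from miScramble, 0.15 ± 0.10 (adjusted p = 0.356) and 0.18 ± 0.10 (adjusted p = 0.341), did not pass the test. In miRbmxl1 replicates 1 and 2 alone gave -0.08, and replicates 3 and 4 alone gave 0.43 (adjusted p = 0.00398). The test of that difference between replicate sets gave 0.53 ± 0.14 (adjusted p = 0.312). It called 0 of 17569 genes in either comparison, with 1944 genes in miRbmx and 1468 in miRbmxl1 at an unadjusted p under 0.05, and was added after the data were seen.

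The zinc-finger factors Gata2 and Gata3, which act in sympathetic precursors, did not pass the test. Gata2 was at 635, 534, 388 and 389.8 CPM in miScramble, at 664, 533, 333 and 352 in miRbmx and at 565, 567, 332 and 373 in miRbmxl1. The groups overlapped throughout, and replicate number separated the libraries more than the knockdown did. The differences of Gata2 from miScramble were -0.08 ± 0.07 (adjusted p = 0.511) and -0.09 ± 0.07 (adjusted p = 0.465). Gata3 was at 126, 114, 111 and 123 CPM in miScramble, at 115, 115, 108 and 110.5 in miRbmx and at 113, 98.5, 85.5 and 120.0 in miRbmxl1. Its miRbmxl1 values were lower in 4 of 4 pairs, as were those of 12.6% of all genes, and overlapped the scramble range. The differences of Gata3 were -0.07 ± 0.07 (adjusted p = 0.531) in miRbmx and -0.19 ± 0.07 (adjusted p = 0.118) in miRbmxl1.

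Isl1, a LIM-homeodomain factor of sympathetic, sensory and motor neurons, was at 62.6, 70.1, 41.9 and 46.8 CPM in miScramble, at 56.1, 72.3, 54.5 and 49.9 in miRbmx and at 67.5, 64.7, 52.4 and 51.3 in miRbmxl1. The groups overlapped. Its differences were 0.09 ± 0.08 (adjusted p = 0.522) and 0.11 ± 0.08 (adjusted p = 0.476), with 95% intervals of -0.08 to 0.26 and -0.06 to 0.28.

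Th was at 17.5, 13.8, 19.2 and 19.5 CPM in miScramble, at 17.2, 17.8, 17.1 and 18.1 in miRbmx and at 17.1, 17.1, 21.2 and 23.0 in miRbmxl1. The miRbmx libraries lay inside the scramble range. Its log2 difference was 0.02 ± 0.09 in miRbmx (adjusted p = 0.924, 95% interval -0.17 to 0.21) and 0.16 ± 0.09 in miRbmxl1 (adjusted p = 0.350, 95% interval -0.03 to 0.35).

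Dbh had the lowest level of the 8 and, after Mycn, the widest differences. It was at 6.94, 8.07, 6.46 and 8.62 CPM in miScramble, at 7.05, 10.8, 10.9 and 11.2 in miRbmx and at 9.98, 7.48, 11.9 and 13.7 in miRbmxl1. In each knockdown 3 libraries lay above the scramble range and 1 within it. The differences of 0.40 ± 0.15 in miRbmx (adjusted p = 0.103, higher in 4 of 4 pairs) and 0.50 ± 0.15 in miRbmxl1 (adjusted p = 0.0627, higher in 3 of 4) did not pass the test. The call depended on the setting. Within replicates 3 and 4 Dbh was higher by 0.56 (adjusted p = 0.00957) and 0.76 (adjusted p = 0.00185), against 0.25 (adjusted p = 0.560) and 0.24 (adjusted p = 0.698) within replicates 1 and 2. The test between these sets gave 0.33 ± 0.27 (adjusted p = 0.684) and 0.54 ± 0.27 (adjusted p = 0.638), so a difference between the sets was not shown. DESeq2 called Dbh in both comparisons (adjusted p = 0.0492 and 0.0142), as did the fit without miRbmxl1 replicate 2 (adjusted p = 0.0234 and 0.00532) and the fit without the count filter (adjusted p = 0.0109 and 0.00127).

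**Figure D3:**
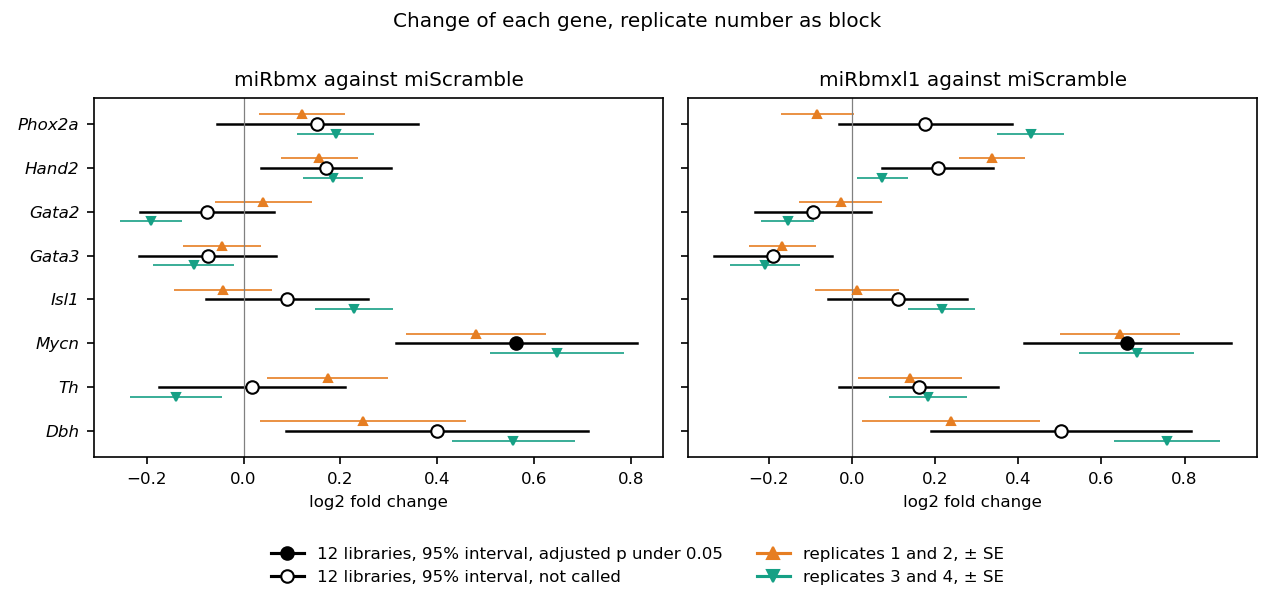
Log2 fold change of each gene against miScramble, for miRbmx (left) and miRbmxl1 (right). Circles with 95% intervals are the fit of 12 libraries (filled where the adjusted p is under 0.05, open otherwise), triangles with SE are fits within replicates 1 and 2 (pointing up) or 3 and 4 (pointing down), and only Mycn is filled, at 0.56 and 0.66.

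In the direct comparison of the knockdowns, no difference in any of the 8 genes passed the same test. The call rate over all genes was 0.0114%, 2 of 17569 genes, while 0 of 8 members were called by edgeR or by DESeq2 and 0 had an unadjusted p under 0.05, as 5.70% of all genes did. For Mycn the difference, miRbmx minus miRbmxl1, was -0.10 with a 95% interval of -0.34 to 0.15. For Dbh it was -0.10 (-0.41 to 0.20), for Th -0.14 (-0.33 to 0.05) and for Gata3 0.12 (-0.03 to 0.26). The intervals of Phox2a (-0.23 to 0.18), Hand2 (-0.17 to 0.10), Gata2 (-0.12 to 0.16) and Isl1 (-0.19 to 0.15) likewise spanned 0.

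Averaged over the groups, Gata2, Phox2a and Isl1 were lower in replicates 3 and 4 than in 1 and 2, by log2 differences of -0.69, -0.42 and -0.41, although Phox2a in miRbmxl1 was highest in replicate 3. Dbh, Mycn and Th lay at 0.29, 0.24 and 0.23, and Hand2 and Gata3 near 0, at -0.08 and -0.05. These averages did not hold in every group. Hand2 in miRbmxl1 was at 429.7 and 446 CPM in replicates 1 and 2 and at 366 and 365 in 3 and 4, and the 2 sets of Dbh in miScramble overlapped. Over all genes the median size of this difference was 0.25 and the 90th percentile 0.76. Over the 12 libraries Phox2a and Isl1 had a Pearson r of 0.81, Gata2 an r of 0.67 with Phox2a and 0.68 with Isl1, and Mycn and Dbh an r of 0.67. Mycn and Gata3 had the lowest r among Mycn's pairs, -0.61. These correlations of log2 levels describe libraries that share the replicate sets.

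The 3 genes closest in pattern to each member, by Pearson r of log2(CPM + 1) over the 12 libraries, were taken from 13309 genes with a mean of at least 1 CPM. Gata2 came with Cpne5, Plekhg6 and Frmpd1 (r of 0.996, 0.988 and 0.986), Phox2a with Vasn, Wdr19 and C1ql1 (0.970, 0.955 and 0.951) and Isl1 with Fn1, Abracl and Ndufa4l2 (0.951, 0.947 and 0.944). Mycn came with Tmem70, Ramp2 and Slc16a6 (0.938, 0.931 and 0.924), Hand2 with Ttc30b, Zkscan8 and Lurap1l (0.931, 0.927 and 0.899) and Gata3 with Tox, Plcl2 and Clec16a (0.896, 0.875 and 0.848). The enzyme Th came with Snx17, Gm13127 and Ddx41 (0.920, 0.912 and 0.895), and Dbh with D630030B08Rik, M6pr and Snrnp25 (0.910, 0.909 and 0.909).

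The rest of the noradrenergic circuit was present in part. Of 18 other adrenergic core regulators, 13 were tested, 2 (Klf13 and Zfp536) had at most 1 read in every library, and Lmo3, Eya1 and Hand1 had traces. In miRbmx 2 of the 13 were called higher and 1 lower, beside 4.16% and 4.19% of all genes, and in miRbmxl1 the same counts stood beside 2.25% and 2.2%. The median of the 13 was -0.0022 and 0.0099. Tfap2b, a factor of sympathetic precursors, rose by 0.61 ± 0.14 (adjusted p = 0.0200) and 0.81 ± 0.14 (adjusted p = 0.00830), from 2.56 ± 0.48 CPM to 3.86 ± 0.25 and 4.50 ± 0.72. Insm1, a zinc-finger factor of neuroendocrine differentiation, rose by 0.21 and 0.25, and Meis1, which overlaps annotated genes on both strands, was lower, with log2 fold changes of -0.24 and -0.22.

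Around Th and Dbh, the pathway was unevenly expressed. Ddc, the step between them, was at 0.270 RPKM in miScramble, under both Th and Dbh. Pnmt, which makes adrenaline, had 1 read in 1 library, and the noradrenaline and dopamine transporters Slc6a2 and Slc6a3 and both monoamine oxidases, Maoa and Maob, had 0 reads in all 12 libraries. The granule proteins Chgb and Chga were abundant, at 147 and 50.4 RPKM. Of 17 genes for decarboxylation, cofactor supply, transport and breakdown, 12 were tested, and 5 were called higher and 1 lower in miRbmx, beside 4.16% and 4.19% of all genes. In miRbmxl1 1 was called higher and 1 lower, beside 2.25% and 2.2%, and the medians were 0.18 and 0.10. That the count differs between the knockdowns was not shown: in the direct comparison 0 of 12 were called, beside 0.0114% of all genes.

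Ddc was at 1.15, 2.02, 0.761 and 0.877 CPM in miScramble, at 2.21, 2.85, 2.40 and 1.71 in miRbmx and at 1.67, 2.18, 3.16 and 1.88 in miRbmxl1. The groups overlapped through miScramble replicate 2, and Ddc rose by 0.96 ± 0.25 (adjusted p = 0.0301) and 0.93 ± 0.26 (adjusted p = 0.0498). Slc18a2, the vesicular monoamine transporter that loads granules, was at 60.6, 56.2, 45.0 and 39.2 CPM in miScramble, at 47.9, 42.2, 35.6 and 33.1 in miRbmx and at 41.8, 41.2, 36.8 and 26.9 in miRbmxl1. It was lower in every same-numbered pair, with log2 fold changes of -0.33 ± 0.07 (adjusted p = 0.00952) and -0.45 ± 0.07 (adjusted p = 0.00304). Among the genes around tetrahydrobiopterin, the cofactor of TH, those called in miRbmx were Spr (0.28), an enzyme of its synthesis, Qdpr (0.26), an enzyme of its recycling, and Gchfr (0.34), the feedback inhibitor of GTP cyclohydrolase. Gch1 (0.08), which encodes that cyclohydrolase, Pts (-0.10) and Pcbd1 (0.15) were not called. Cyb561, which passes electrons into granules for DBH, rose by 0.29 in miRbmx and was at 0.22 in miRbmxl1, where it was not called (adjusted p = 0.103). Ddc, Slc18a2, Qdpr and Cyb561 each overlap an annotated gene on the opposite strand. Of 4 cholinergic genes tested, edgeR called 0 in either knockdown and 0 had an unadjusted p under 0.05, beside 8.35% and 4.46% of all genes called and 24.9% and 19.8% at that p. So few genes cannot be told apart from these shares. Slc18a3, Slc5a7 and Lhx8 had at most 2 reads in every library.

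**Figure D4:**
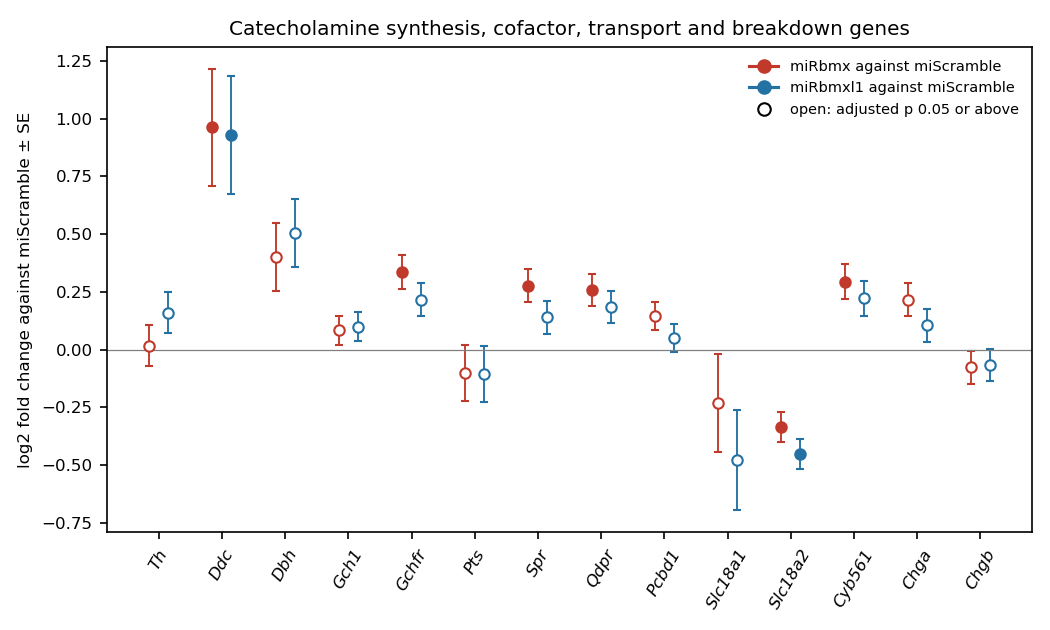
Log2 fold change ± SE against miScramble of Th, Dbh and the 12 tested genes of decarboxylation, cofactor supply, transport and breakdown, for miRbmx and miRbmxl1. Filled points have an adjusted p under 0.05 (replicate number as block), and Ddc is highest at 0.96 and 0.93 while Slc18a2 is the only gene filled below 0, at -0.33 and -0.45.

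Beside Mycn itself, its paralog Myc was at 155 RPKM in miScramble, against 3.46 for Mycn. Myc was not called, with differences of -0.06 (adjusted p = 0.736) and -0.19 (adjusted p = 0.242). All 24 genes of a list of MYCN partners and targets were tested. In miRbmx 3 were called higher and 4 lower, beside 4.16% and 4.19% of all genes, and in miRbmxl1 2 higher and 4 lower, beside 2.25% and 2.2%. The medians were 0.01 and -0.04. In the direct comparison edgeR called 0 of 24, beside 0.0114% of all genes, and 2 had an unadjusted p under 0.05, beside 5.70%. The members that moved did not share a direction. Ldha, a glycolytic enzyme, rose in both knockdowns (0.61, adjusted p = 0.0154, and 0.50, adjusted p = 0.0490), with overlapping groups and, in miRbmxl1, replicate 2 lower than in miScramble (857 against 921 CPM). Odc1, an enzyme of polyamine synthesis, was called higher in miRbmx (0.39, adjusted p = 0.00806) and was at 0.25 in miRbmxl1 (adjusted p = 0.0589). Of the MAX partners that oppose MYC, Mxi1 was called higher in miRbmx (0.27), whereas Mnt (-0.42), Mxd1 (-0.37) and Mxd4 (-0.25) were called lower there. In miRbmxl1 Mxd1 (-0.36) and Mxd4 (-0.30) were again called lower, while Mnt was at -0.39 (adjusted p = 0.0700) and Mxi1 at 0.19 (adjusted p = 0.114). Lin28b, an inhibitor of let-7 microRNA processing, was lower in both knockdowns (-0.45, adjusted p = 0.00522, and -0.28, adjusted p = 0.0434). In miRbmxl1 Max, the obligate partner of MYCN, fell by 0.23, while Cad, a pyrimidine synthesis enzyme, rose by 0.20. In miRbmx these were at -0.19 (adjusted p = 0.0532) and 0.15 (adjusted p = 0.0836). Ribosome-related genes of the list, Ncl, Npm1 and Fbl, were not called.

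Counts in the next 3 lists stand beside 8.35% of all genes called in miRbmx and 4.46% in miRbmxl1. Among 12 neurotrophic and growth factor receptors, of which 9 were tested, 2 were called in miRbmx and 1 in miRbmxl1: Ngfr rose by 0.36 and 0.30, and Erbb3 by 0.36 in miRbmx, while in miRbmxl1 it was at 0.30 (adjusted p = 0.0511). In the direct comparison edgeR called 0 of these 9, with 0 at an unadjusted p under 0.05, beside 0.0114% and 5.70% of all genes. Ret was at 99.3 RPKM and was not called (0.30, adjusted p = 0.0633, and 0.34, adjusted p = 0.0569), and Gfra3 and Ntrk2 had at most 3 reads in every library. Of 20 genes of the mesenchymal neuroblastoma state, 10 were tested, and Vim (0.32) and Wwtr1 (0.27) were called in miRbmx and 0 in miRbmxl1, where 5 had an unadjusted p under 0.05 (19.8% of all genes did). There Vim was at 0.18 and Wwtr1 at 0.24 (adjusted p = 0.246 and 0.0761). In the direct comparison edgeR called 0 of these 10, with 0 at an unadjusted p under 0.05, beside 0.0114% and 5.70% of all genes. A difference between the knockdowns was not shown. Twist1, Twist2, Yap1, Meox2 and Tbx18 had at most 2 reads in every library. Of 14 genes of noradrenergic and neuronal identity, Uchl1 rose (0.28 and 0.23) and Snap25 was lower (-0.23 and -0.25) among the 11 tested, Prph stood at 819 RPKM, and Nefl and Nefm had at most 3 reads. Across these lists and those above, 83 genes were tested, of which 22 were called in miRbmx and 14 in miRbmxl1 with the block, beside 8.35% and 4.46% of all genes. Without it 0 were called in either, with 22 and 14 at an unadjusted p under 0.05, as were 10.9% and 8.46% of all genes. The lists were chosen with earlier results of these data known, so these counts beside the shares of all genes test nothing about the lists.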

How the data were processed

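RNA-seq of 12 Neuro-2a libraries was used. The authors deposited raw read counts per gene, 1 file per library; per the submitters' processing notes, cutadapt, STAR 2.5.3a, HTSeq 0.6.1p1, R 3.3.2 and DESeq2 1.16.1 were named, with build mm10. The annotation and the strand setting are not given in the sources used here. Rows naming no gene held 52.3 to 57.4% of each file's total and were left out. Of 55401 identifiers, 55141 were in GENCODE M21, which gave symbols, positions and lengths.

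Counts were tested in R 4.3.3 with edgeR 4.0.16: filterByExpr (minimum count 10, total 15) kept 17569 genes, followed by TMM scaling and the quasi-likelihood F-test over all 12 libraries with replicate number as block. Calls are Benjamini-Hochberg adjusted p under 0.05 over all genes tested. CPM uses TMM-scaled totals, and RPKM divides CPM by the length of all exons merged. The replicate number was set as a block in the definition of the gene set. All 12 same-number pairs of libraries correlated at 0.195 or above after removal of group means. Pairs with different numbers within replicates 1 and 2 or within 3 and 4 correlated at 0.10 to 0.43, which overlaps the same-number pairs. Those across these sets correlated at -0.57 to -0.13. Only the values bear on this pairing, as the labels do not say what a number marks, nor whether replicates were separate cultures. The p-values therefore measure the spread between these samples. On counts simulated for miRbmx against miScramble (17569 genes), 59% of genes changed 1.5-fold and 75% of those changed 2-fold were recovered, with 5.90% and 4.66% of calls false. The simulated counts had replicate-number effects built in and took their spread from the blocked fit. They cannot give the share of false calls if the number marks no real block. Alternatives were no block, DESeq2 1.42.0, other scaling and filters, fewer groups, replicate sets and left-out libraries.

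Named were the 8 members, the 3 genes of closest pattern for each, up to 4 called genes per list by adjusted p, genes with at most 3 reads in every library, and the knockdown targets; other names were chosen after values were seen. The members and lists were chosen with earlier results of these data known. Some genes of the lists are not reported here and were left out of their counts.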

Additional observations from a re-analysis of the deposited data

Results flagged for a closer look

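Of the 24 sets of 4 libraries (8 genes in 3 groups), 2 held a library far from the other 3, where chance alone marks about 1 in 20 sets. Mycn was at 22.6 CPM in miRbmx replicate 3, with the next highest library of that group at 15.9 CPM. Mycn in miRbmx without that library differed from miScramble by 0.49 (adjusted p = 0.0566 by edgeR). Dbh was at 7.05 CPM in miRbmx replicate 1, with the next lowest library at 10.8 CPM.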

How the results depend on the processing

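The direction of Mycn held against miScramble in both knockdowns under all 24 alternatives, with log2 fold changes of 0.42 to 0.67 in miRbmx and 0.52 to 0.78 in miRbmxl1 when libraries were left out. Its call was lost under 5 of the 24 in miRbmx and under 3 in miRbmxl1, all given above; the cause was not tested. Members called in miRbmx numbered 0 with no replicate block and within replicates 1 and 2, 2 within replicates 3 and 4, with DESeq2 or without a count filter, and 3 with only the 2 groups compared. In miRbmxl1 they numbered 0 with no replicate block and within replicates 1 and 2, and 3 within replicates 3 and 4, with DESeq2 or without a count filter. Leaving out libraries gave 0 to 2 in both. The share of all genes called is not given for every one of these fits, so these member counts cannot be set against it. Over all genes, the call count fell to 1 in each comparison with miScramble with no replicate block, and between the knockdowns it was 2 with and without the block. Within replicates 1 and 2 it was 4 in miRbmx, 30 in miRbmxl1 and 4 between the knockdowns. Left-out libraries gave 146 to 1904, 100 to 1032 and 2 to 7. In miRbmxl1 it was 1279 with DESeq2, 1243 without a filter and 426 with only 2 groups, and between the knockdowns 10 with DESeq2, 86 without a filter and 18 within replicates 3 and 4.

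Small uncalled differences changed sign. Within replicates 1 and 2, Gata2 was at 0.041 and Isl1 at -0.043 in miRbmx, and Phox2a at -0.083 in miRbmxl1. Th in miRbmx was at -0.14 within replicates 3 and 4, and at -0.087 to 0.083 with libraries left out. Between the knockdowns, within replicates 1 and 2, Dbh was at 0.0070, Phox2a at 0.20 and Th at 0.035. Within replicates 3 and 4, Gata2 was at -0.037, Hand2 at 0.11 and Isl1 at 0.012, and Phox2a was at 0.0026 with no replicate block. With libraries left out, these ran from -0.29 to 0.022 (Dbh), -0.052 to 0.071 (Gata2), -0.089 to 0.030 (Hand2), -0.083 to 0.063 (Isl1) and -0.13 to 0.13 (Phox2a). Dbh and Mycn had the fewest reads of the members, and whether depth limits their values was not tested.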
